A study of Mus musculus with 2 samples.

Results

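The activin and follistatin genes described here are 9 genes of 32285 in the count matrices, chosen by symbol: the activin beta subunits Inhba and Inhbb, the antagonists Fst and Fstl3 with their relative Fstl1, and the receptors Acvr1, Acvr1b, Acvr2a and Acvr2b. All 9 were found. They were measured in mouse lung by droplet single-cell RNA sequencing, in 2 libraries of cells from mice of 8 to 10 weeks with the genotype Lepr-CreERT2;Rosa26-tdtomato, 1 after saline and 1 after bleomycin, a drug used to injure the lung and bring on fibrosis. Both libraries carry the same alleles: a Cre recombinase that needs tamoxifen, made under the leptin receptor gene, and a red fluorescent reporter that stays on in a cell and its descendants once Cre has acted. Live cells with the reporter and without CD45, EpCAM or CD31 were sorted, a gate set to leave out leukocytes, epithelium and endothelium. The labels do not state how many mice were pooled, when tamoxifen was given, or the dose and day of bleomycin. With 1 library per treatment no difference below has a replicate check, and intervals (95%) cover counting error only.

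Activins are dimers of inhibin beta subunits, beta A from Inhba for activin A and beta B from Inhbb for activin B. They bind the type II receptors ACVR2A or ACVR2B, which recruit and phosphorylate the type I receptor ACVR1B, and ACVR1B in turn phosphorylates SMAD2 and SMAD3. Follistatin (Fst) and FSTL3 wrap around the ligand outside the cell and hide its receptor surfaces, FSTL1 shares the follistatin module without being a comparable activin trap, and ACVR1 is a type I receptor best known for signalling by bone morphogenetic proteins, although it also binds activin. In the lung, activin A is known as a cytokine of inflammation and fibrosis, and follistatin as its antagonist.

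The promoters of the ligand that differed most between the libraries and of the antagonist that differed least are shown for their different make-up. Of the 9 genes 8 (all but Fst) were matched in the RefSeq promoter table (GRCm38.p6), and the bases before the start of the GENCODE gene are printed 5′ to 3′ on the coding strand. Capitals mark the matches, on either strand, of 6 motifs. These were an AP-1 site spelled TGANTCA, the box bound by SMAD proteins spelled CAGAC, the core of a cAMP response element spelled TGACG, the TATA box spelled TATAAA, the box known as CCAAT, and the GC box spelled GGGCGG, which reads differently on the opposite strand.
Inhba, chr13:16011601-16011850, + strand: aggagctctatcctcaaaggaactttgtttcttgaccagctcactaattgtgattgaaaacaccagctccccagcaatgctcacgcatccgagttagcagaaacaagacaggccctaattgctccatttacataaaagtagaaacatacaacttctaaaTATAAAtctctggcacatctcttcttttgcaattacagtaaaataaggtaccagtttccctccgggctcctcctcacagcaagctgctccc
Fstl3, chr10:79777024-79777271, + strand: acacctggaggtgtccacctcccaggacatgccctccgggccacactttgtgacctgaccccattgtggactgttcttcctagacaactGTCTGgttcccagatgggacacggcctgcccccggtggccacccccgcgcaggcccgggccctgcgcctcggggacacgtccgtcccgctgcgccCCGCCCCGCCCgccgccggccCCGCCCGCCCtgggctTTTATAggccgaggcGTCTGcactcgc
The Inhba promoter had 43.2% G and C, against a median of 52.4% over 32851 promoters, and held 1 TATAAA 91 bases before the start and none of the other 5 motifs. The Fstl3 promoter had 71.2% G and C, with CAGAC 161 and 14 bases before the RefSeq start, TATAAA at 29 and 4 GC boxes that overlap in pairs. In the same window of all promoters TATAAA was found in 12.4%, CAGAC in 42.2% and GGGCGG in 32.7%. These are matches of letters, not measured binding sites.

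The libraries held 8396 and 10138 barcodes with medians of 6762 and 11662 unique molecules (UMIs) per cell in saline and bleomycin, 25 barcodes were in both, and 8284 and 10001 cells were used. They fell into 10 clusters, which were named from marker lists: alveolar fibroblasts (clusters led by Slc7a10 and by Tpm3-rs7 and Inmt, 5740 saline and 296 bleomycin cells), adventitial fibroblasts (Pi16, Ly6a; 1472 and 1070), inflammatory fibroblasts (Saa3, Lcn2; 88 and 4172), peribronchial fibroblasts (Aspn, Hhip, with the muscle genes Cnn1 and Actg2; 399 and 566), smooth muscle cells (Myh11, Acta2; 369 and 527), proliferating cells (38 and 226) and fibrotic fibroblasts (Spp1, Cthrc1; 17 and 2815). The 9 genes were kept out of the clustering. A cluster of alveolar epithelial cells (120 and 212) and one of mesothelial cells (41 and 117) were set aside, which left 8123 and 9672 mesenchymal cells. Only classes with 50 cells in a library are given a level there, so fibrotic and proliferating cells have none in saline. Of the genes that bear on the sorted population, Col1a1, the type I collagen gene of mesenchyme, was at 962 and 3798 CPM (UMIs per 1000000 UMIs of the sum). Lepr was at 62.5 and 11.3 CPM, and Ptprc, which encodes CD45, had 5 and 84 UMIs in all mesenchymal cells. The matrices hold 0 features for the reporter or Cre, so the lineage label itself could not be read.

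Over all mesenchymal cells Inhba, Fst and Fstl1 were higher in bleomycin, and Fstl3 and the receptors Acvr1, Acvr1b and Acvr2a differed by less than 2-fold. A gene was called higher or lower at a ratio of at least 2, where the larger level was 10 CPM or more and the interval was clear of 1, which 5.63% of 8023 genes passed upward and 5.92% downward. Of the 9 genes 7 reached 10 CPM in a library. Calls fell on 3 of these 7 upward and on 0 downward, and their median log2 ratio was 0.71 against -0.04 over all genes tested. When the libraries were scaled to a median gene ratio of 1, all log2 ratios rose by 0.10 and the split over all genes moved from 452 higher and 475 lower to 537 and 368.

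Inhba, the ligand subunit of activin A, had 580 UMIs in saline and 20965 in bleomycin, or 9.82 and 160 CPM. The ratio was 16.3 (14.96 to 17.68). Inhbb stayed scarce, with 39 and 1232 UMIs, or 0.661 and 9.38 CPM, under the 10 CPM that the call required. Inha, the alpha subunit that turns an activin into an inhibin, was at 2.00 and 2.06 CPM.

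Fst had 424 and 41365 UMIs, or 7.18 and 315 CPM, a ratio of 43.9 (39.9 to 48.4). Per Inhba UMI there were 0.731 Fst UMIs in saline (0.643 to 0.830) and 1.97 in bleomycin (1.94 to 2.01), so follistatin was higher relative to the ligand in bleomycin. Fstl3 was lower relative to the ligand there, with 5.39 and 0.352 Fstl3 UMIs per Inhba UMI, while its own level was 52.9 and 56.2 CPM. A 3' kit counts 1 tag per captured molecule whatever the transcript's length, but capture can differ between genes, so the ratios are compared between libraries and not with 1. Fstl1, a secreted glycoprotein of mesenchyme, had the most UMIs of the 9 genes, at 365 and 1075 CPM, a ratio of 2.95 (2.90 to 2.99).

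Among the receptors, Acvr1 was at 20.5 and 33.5 CPM (ratio 1.63) and Acvr1b at 11.2 and 15.7 CPM (1.40). The type II receptor Acvr2a was at 27.1 and 18.8 CPM (0.694), with the overlapping gene Orc4 on the other strand at 27.1 and 21.4 CPM. Acvr2b was at 2.78 and 1.35 CPM, under the level required. The receptors therefore ranged from a ratio of 0.485 to 1.63, far less than the ligand and follistatin.

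The cell classes differed in size between the libraries, so each gene was also compared within the 5 classes that had 50 cells in both. Fst was higher in 5 of 5. In peribronchial fibroblasts, which lie along the airways, it was at 22.3 CPM in saline and 328 in bleomycin (ratio 14.7, 10.6 to 21.1). The saline cells of this class were the shallowest, with a median of 3330 UMIs against 8830.5 in bleomycin. In alveolar fibroblasts Fst was at 2.41 and 18.7 CPM (7.76, 5.17 to 11.4), from 101 and 37 UMIs, and in smooth muscle cells at 14.1 and 64.3 CPM (4.58, 3.31 to 6.47). Adventitial fibroblasts had 14.5 and 54.0 CPM (3.73) and inflammatory fibroblasts 41.2 and 125 CPM (3.03). The share of all genes called higher in these classes was 6.44% in peribronchial, 1.59% in alveolar, 3.96% in smooth muscle, 3.16% in adventitial and 3.57% in inflammatory cells, and the share called lower 6.68%, 0.81%, 2.22%, 3.41% and 2.35%. In a finer clustering (resolution 1) the alveolar Fst UMIs of bleomycin were uneven. The Tpm3-rs7 cluster had 34 in 174 cells (26.9 CPM) and the Slc7a10 cluster 0 in 76 cells. A further cluster of 506 bleomycin cells, also named alveolar there, had 5.08 CPM.

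Inhba was higher in 3 of 5 classes. It was at 20.5 and 129 CPM in peribronchial fibroblasts (6.28, 4.43 to 9.20), at 12.2 and 43.0 in adventitial fibroblasts (3.52, 2.89 to 4.31) and at 21.1 and 62.2 in inflammatory fibroblasts (2.95, 1.96 to 4.66). Smooth muscle cells, of the 5 classes the one with the most Inhba in saline, had 65.9 and 53.3 CPM (0.808, 0.670 to 0.976). That ratio turned to 1.30 when each cell was instead given the class of its highest marker score. Alveolar fibroblasts had 3.86 and 7.07 CPM, under the level required in both libraries. Weighted to the saline mixture of 6 clusters, Inhba had a ratio of 2.13 and Fst of 5.58, with 1.57% of all genes at 2-fold or more upward and 0.747% downward in that comparison.

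The other genes varied less within classes. Fstl1 was higher in peribronchial fibroblasts alone of the 5 (485 and 1221 CPM, ratio 2.52), and its ratio of 1.98 in adventitial fibroblasts was just short of the call. Fstl3 was at 78.8 and 47.9 CPM in inflammatory fibroblasts (0.608), at 60.1 and 93.3 in peribronchial fibroblasts (1.55) and within 6% of equal in the other 3 classes. Inhbb was called in inflammatory fibroblasts (1.83 and 10.3 CPM), from 2 saline UMIs. Acvr1b, the type I receptor of activin, had ratios of 1.26 to 2.31 in the 5 classes and passed the call in 4, for example at 11.5 and 25.3 CPM in alveolar fibroblasts. When the 5% of cells that scored highest as doublets were left out, the count was 2 of 5 and the ratios were 1.23 to 2.19. Acvr1, Acvr2a and Acvr2b passed the call in 0 of 5.

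**Figure D1:**
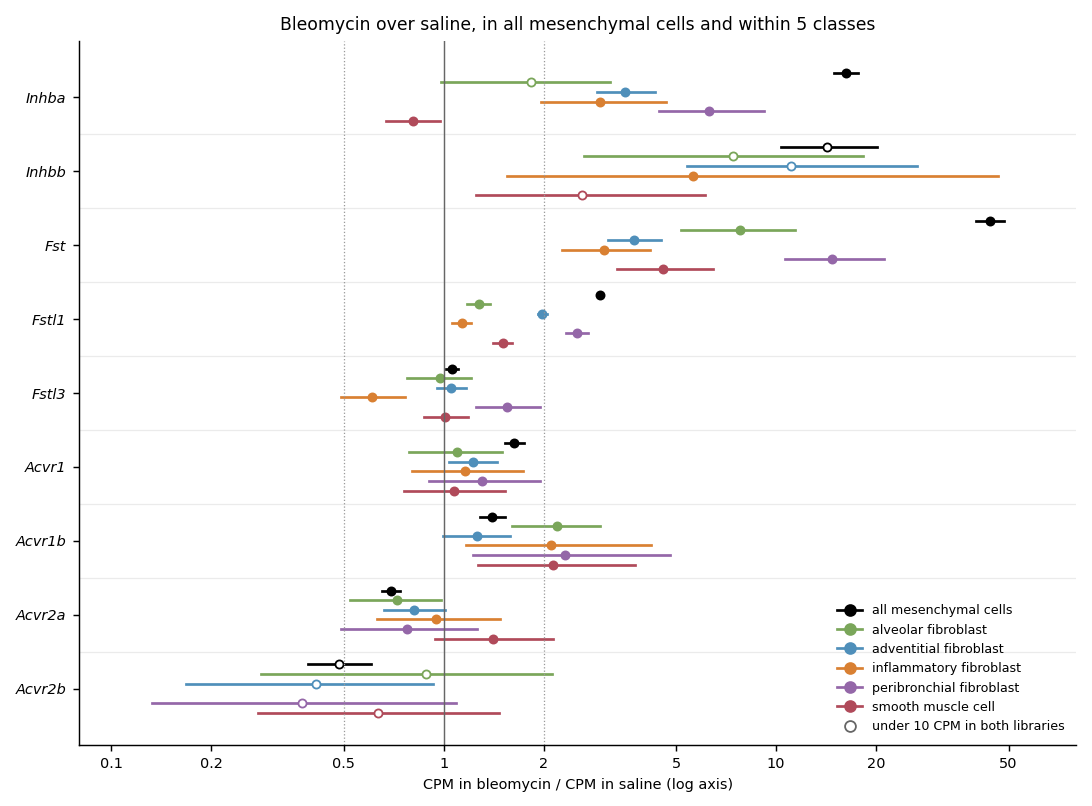
Ratio of CPM in bleomycin over saline for each gene (log axis), over all mesenchymal cells (black) and within 5 classes (colours); bars are 95% intervals of counting error, open points are genes under 10 CPM in both libraries, dotted lines mark 0.5 and 2, and genes with 0 UMIs in a library are not drawn. Fst lies above 2 in all 5 classes, from 3.03 to 14.7, while Inhba lies at 0.808 in smooth muscle cells.

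Markers of other cells moved with these differences. The lymphocyte and plasma cell list (12 genes, 2 at 0 in saline and 0 in bleomycin) summed to 31.8 and 576 CPM over mesenchymal cells, of which the immunoglobulin gene Igkc gave 22.8 and 506 CPM and Jchain, the joining chain of antibodies, 6.45 and 62.2. Cd3e and Ms4a1 were the 2 at 0 in saline. The list reached 851 CPM in the fibrotic class. In saline and bleomycin it summed to 38.7 and 719 CPM in adventitial fibroblasts, 2.75 and 484 in inflammatory fibroblasts, 32.3 and 17.7 in alveolar fibroblasts, 6.69 and 13.0 in smooth muscle cells and 1.24 and 8.89 in peribronchial fibroblasts. The Schwann cell list (8 genes, Sox10 at 0 in saline) summed to 5.20 and 20.6 CPM over mesenchymal cells, most of it S100b in bleomycin (16.1 CPM), and to 42.1 and 178 CPM in peribronchial fibroblasts, where the ratio of Fst was highest of the 5 classes. The vascular endothelial list (12 genes) summed to 41.6 and 88.8 CPM, the lymphatic endothelial list (7 genes, Reln at 0 in saline, mostly Pdpn at 43.5 and 82.3 CPM) to 45.2 and 90.6 and the macrophage list (13 genes, Adgre1 and Marco at 0 in saline) to 20.8 and 37.6. Most of the vascular sum was Plvap (8.54 and 37.6) and Ramp2 (21.1 and 30.5). Pecam1 (1.66 and 1.10), Tek (3.08 and 1.44) and Car4 (0.440 and 0.137) were lower in bleomycin, and the rest of that list was higher. Most of the macrophage sum was Lyz2 (10.7 and 22.8), and Cd68 (4.59 and 1.74) alone of that list was lower. The sums of the mesothelial, alveolar epithelial and airway epithelial lists were lower in bleomycin, at 98.8 and 54.3, 99.6 and 79.2, and 122.8 and 76.5 CPM. The largest gene of each list in saline was lower: Upk1b (68.4 and 28.8), Hopx (44.2 and 11.2) and Tppp3 (87.8 and 45.2). The remaining genes went both ways, with Sftpc (35.9 and 46.4), Msln (0.339 and 0.762) and Scgb3a1 (0.169 and 1.29) among those higher in bleomycin. The part of these cells in the differences was not tested.

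In saline, Inhba and Fst peaked in different cells among the 5 classes given a level. Inhba was highest in smooth muscle cells at 65.9 CPM, followed by inflammatory (21.1), peribronchial (20.5) and adventitial fibroblasts (12.2), whose intervals overlapped from each to the next, and it was lowest in alveolar fibroblasts (3.86). Smooth muscle cells were 4.45% of all cells used (epithelial and mesothelial ones included) and held 34.0% of the mesenchymal Inhba UMIs. Fst was at 41.2 CPM in the 88 inflammatory fibroblasts, then 22.3 in peribronchial, 14.5 in adventitial and 14.1 in smooth muscle cells, again with overlapping neighbours, and at 2.41 in alveolar fibroblasts. Smooth muscle cells thus had 0.213 Fst UMIs per Inhba UMI (0.149 to 0.299), the lowest of the 5 classes, and inflammatory fibroblasts 1.96 (1.16 to 3.39). The antagonist Fstl3 was instead highest in the same class as Inhba, at 91.3 CPM in smooth muscle cells. Inflammatory fibroblasts came next at 78.8 CPM, with overlapping intervals. The 17 saline cells of the fibrotic class, too few for a level, held 34 Inhba and 30 Fst UMIs of 210845 in all. For both genes that is a higher fraction than in any of the 5 classes, from 6 cells with Inhba and 5 with Fst. The different peaks therefore hold among the 5 classes alone.

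Finer clustering (resolution 1) split the saline classes further. Of the 2 adventitial clusters, the one led by Pi16 and Ly6a had 44.6 CPM of Fst and 12.9 of Inhba, and the one led by Aqp1 and Adh7 had 2.31 and 12.2, so Fst separated them and Inhba did not. With 528 cells the Pi16 cluster held 31.8% of the saline Fst UMIs. Among alveolar clusters, the one led by Slc7a10 had 3 Fst UMIs in 2809 saline cells, or 0.177 CPM.

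In bleomycin both genes peaked in the fibrotic class, the fibroblasts marked by Spp1, which encodes osteopontin, and Cthrc1. Inhba was at 319 CPM there (314 to 324), then at 129 in peribronchial fibroblasts and 118 in proliferating cells, whose intervals overlapped, below these at 62.2 in inflammatory fibroblasts, at 53.3 in smooth muscle and 43.0 in adventitial cells, whose intervals overlapped, and at 7.07 in alveolar fibroblasts. Fst was at 619 CPM in the fibrotic class (612 to 626), at 334 and 328 in proliferating cells and peribronchial fibroblasts, whose intervals overlapped, at 125 in inflammatory fibroblasts, at 64.3 and 54.0 in smooth muscle and adventitial cells, which overlapped, and at 18.7 in alveolar fibroblasts. The fibrotic class was 28.1% of all cells used and held 74.2% of the mesenchymal Inhba UMIs and 72.9% of the Fst UMIs, but 36.7% of Fstl3, 35.7% of Acvr2a and 22.4% of Acvr1b. Acvr1b was at 9.52 CPM there, against 21.1 in inflammatory and 25.3 in alveolar fibroblasts, whereas Acvr1 was at 40.4 CPM, its highest level in any class. Inhba and Fst were both among the 10 genes most raised in the fibrotic cluster. Neither was used to form it, but genes that vary with them were. The cluster held 2815 bleomycin and 17 saline cells, so this ranking is independent of neither the clustering nor the treatment.

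**Figure D2:**
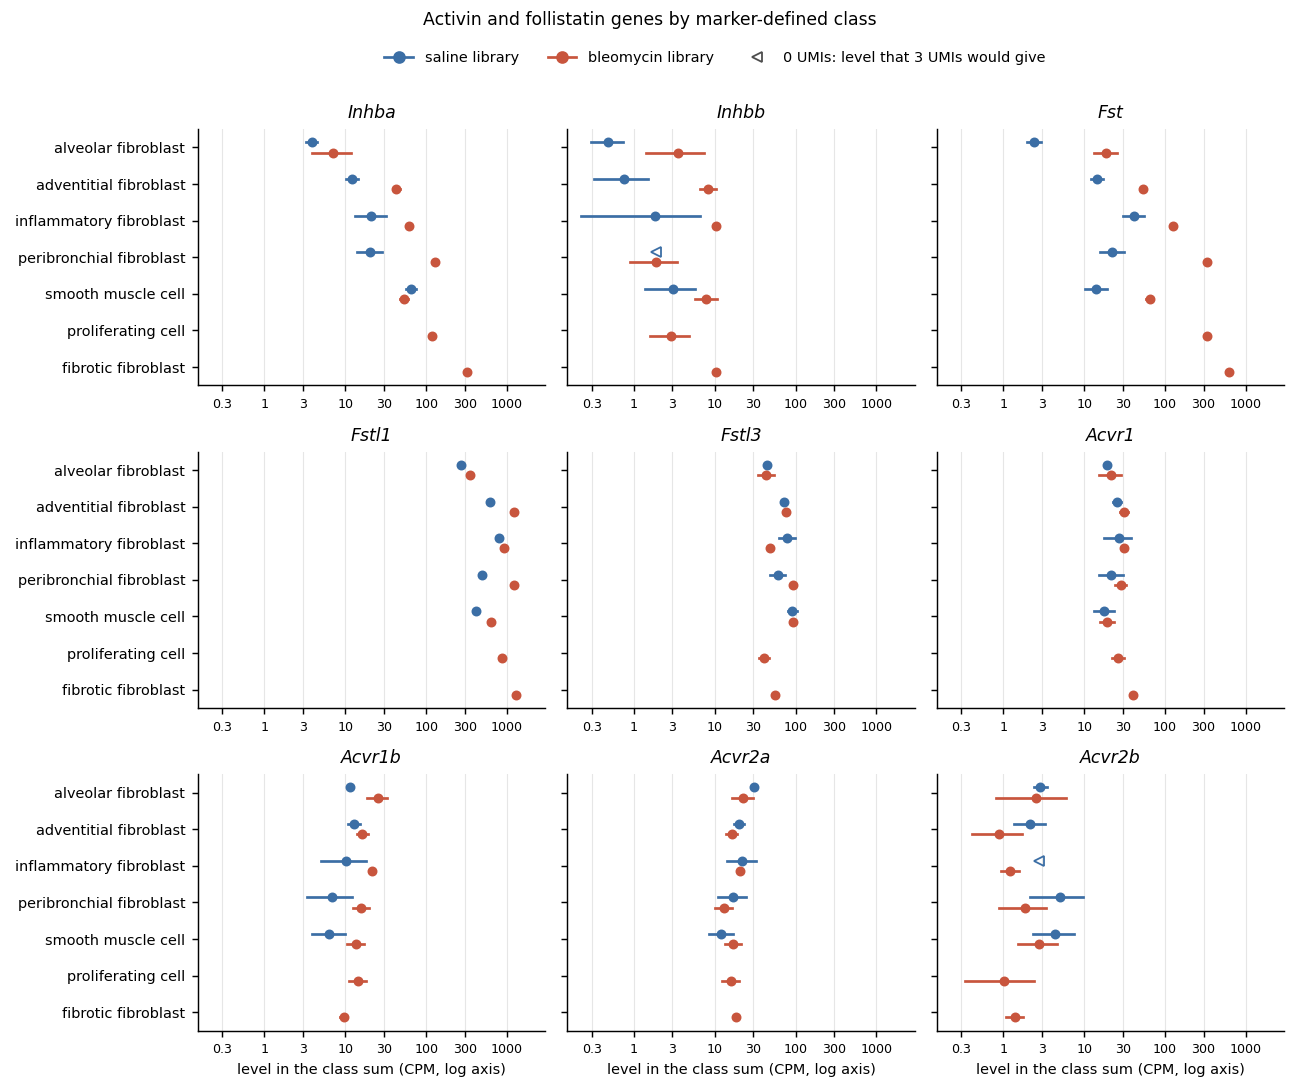
Level of each gene in CPM (log axis) in 7 mesenchymal classes, in the saline (blue) and bleomycin (red) libraries; points are class sums, bars 95% counting intervals, and open triangles the level that 3 UMIs would give where 0 were counted. Inhba and Fst span from 7.07 to 319 and from 18.7 to 619 CPM over the bleomycin classes, while Fstl3 spans from 40.6 to 93.3.

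At resolution 1 the balance of the pair differed between the clusters named fibrotic. These were drawn anew and do not divide the fibrotic class exactly. The proliferating cluster, for example, had 226 bleomycin cells before and 569 at resolution 1. The cluster led by Cthrc1 and Thbs4 (706 bleomycin cells) had the most Inhba, 424 CPM, with 510 of Fst, 1989 of Fstl1 and 4.91 of Acvr1b. The cluster led by the immunoglobulin gene Iglc1, Spp1 and Penk (2056 cells) had less Inhba, 233 CPM, and more Fst, 590 CPM, with Fst itself among its leading genes. Proliferating cells at this resolution (569 cells) had 293 and 569 CPM. At the low end, alveolar fibroblasts led by Ces1d (506 bleomycin cells) had 6.62 CPM of Inhba and 5.08 of Fst. The Saa3 and Lcn2 cluster had 58.6 and 94.4 CPM. Inhbb was at 13.7 CPM there, at 14.7 in the Iglc1 cluster and at 16.6 in the bleomycin cells of the Aqp1 and Adh7 adventitial cluster.

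**Figure D3:**
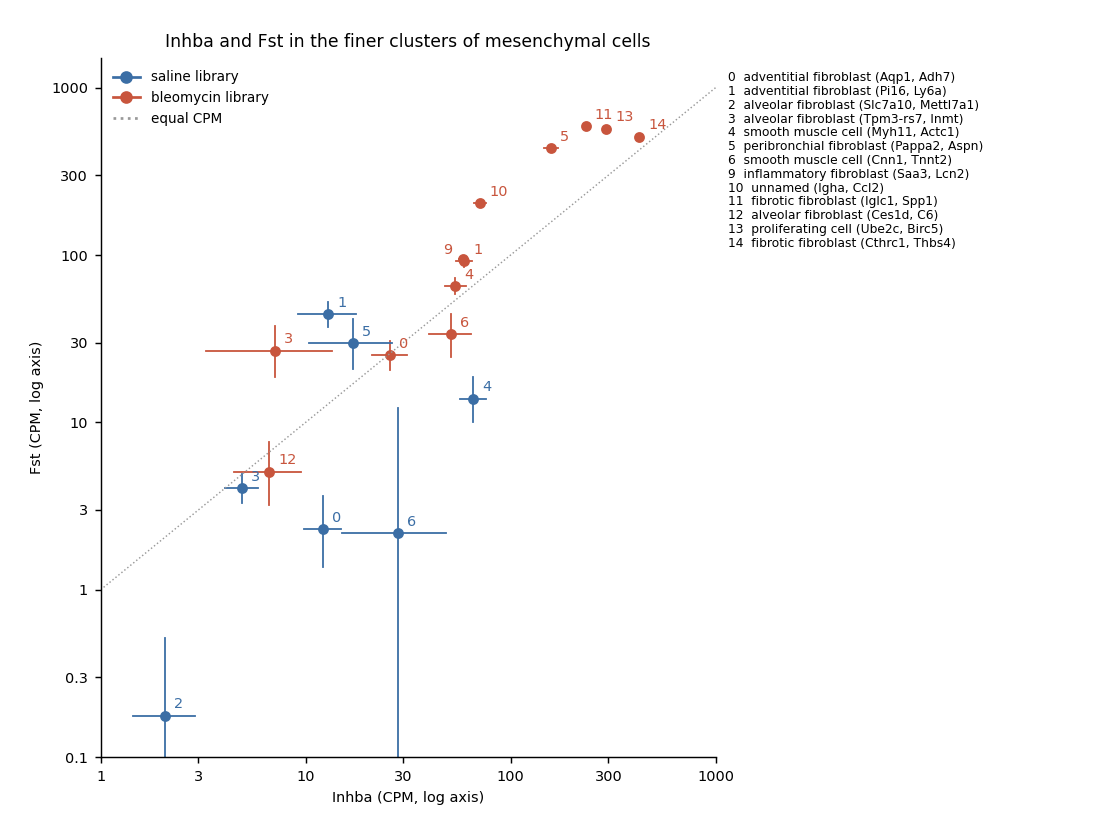
Inhba against Fst in CPM (both axes log) in the finer clusters of mesenchymal cells, in saline (blue) and bleomycin (red), with 95% counting intervals and a dotted line of equal CPM; a cluster with 0 UMIs of either gene in a library is not drawn. The saline smooth muscle cluster 4 lies at 65.8 CPM of Inhba and 13.9 of Fst, and the fibrotic clusters 11 and 14 lie at the upper right.

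The ratio of Fst to Inhba UMIs differed between libraries in 3 of the 5 classes beyond counting error. It was 0.213 and 1.21 in smooth muscle cells, 0.623 and 2.64 in alveolar fibroblasts and 1.09 and 2.56 in peribronchial fibroblasts. In adventitial fibroblasts it was 1.18 and 1.26 and in inflammatory fibroblasts 1.96 and 2.01, with overlapping intervals. In the fibrotic class it was 1.94 and in proliferating cells 2.83, both in bleomycin. The peribronchial class was also led by Cnn1 and Tnnt2, genes that lead a separate cluster at resolution 1. That cluster had 13 Inhba and 1 Fst UMIs in saline and 73 and 48 in bleomycin. The cluster led by Pappa2 and Aspn had 20 and 35 in saline and 621 and 1725 in bleomycin. Whether the peribronchial difference exceeds counting error in the Pappa2 and Aspn cluster alone was not tested.

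The last question was whether the same cells carry both. Each cell was thinned to 2000 UMIs, which left out 144 saline and 153 bleomycin cells. Inhba was then found in 1.68% of saline and 13.0% of bleomycin cells, and Fst in 1.03% and 22.9%. Without thinning the shares were 5.10% and 34.4% for Inhba and 2.75% and 45.7% for Fst. The epithelial cluster, with median depths of 5309 and 5721 UMIs against 6781 and 11822 in mesenchymal cells, gives the background: 0 of 110 saline cells for either gene, which allows up to 2.73%, and 1.81% of 166 bleomycin cells for each. The thinned saline shares of both genes lie under that limit. In the fibrotic class Inhba was found in 26.9% and Fst in 48.3% of 2780 cells.

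In bleomycin 46.5% of the 1237 cells with an Inhba UMI also had Fst (43.7 to 49.3), against 19.4% of the 8282 others (18.5 to 20.2), a ratio of 2.40. Fst ranked 58 of 9318 genes by that ratio, and 4.67% of genes had a ratio of 1.5 or more, with a median of 0.99. Of the cells with Fst, 26.4% had Inhba, against 9.02% of the others, a ratio of 2.92, with 3.79% of genes at 1.5 or more beside Fst. Fstl3 had a ratio of 1.12, Fstl1 of 1.11 and Acvr1 of 1.17. Acvr1b and Acvr2a were found less often beside Inhba (2.18% against 3.24% and 2.91% against 4.31%), as was Inhbb (0.728% against 1.56%, 9 cells). These 3 ratios turned above 1 without thinning, and the cause was not tested. Among the 5 genes with the highest ratio were the homeobox gene Meox1 (5.25), Ptprn (5.18), Tnfrsf11b, which encodes osteoprotegerin (4.45), and the BMP antagonist Grem1 (4.18).

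Part of the pairing lay between classes and part within them. Pooled within clusters, the ratio for Fst was 1.48. In inflammatory fibroblasts 30.0% of 283 Inhba cells had Fst against 10.9% of the others (2.75), rank 20 of 8929 genes, and with Fst as the anchor Inhba ranked 4 of 8929. In that class 6.93% of genes had a ratio of 1.5 or more beside Inhba and 4.58% beside Fst. In peribronchial fibroblasts the shares were 44.4% and 24.2% (1.83, with 16.7% of genes at 1.5 or more) and in the fibrotic class 58.6% and 44.5% (1.32, rank 923 of 9245, with 4.94% of genes at 1.5 or more), so in fibrotic cells Fst was common with or without Inhba. Adventitial fibroblasts had 13.0% of 54 Inhba cells against 6.81%, with overlapping intervals and 22.2% of genes at 1.5 or more. Smooth muscle cells had 5.77% of 52 Inhba cells against 9.25%, 3 cells with both, also overlapping and with 18.3% of genes at 1.5 or more. In saline 7 of 134 Inhba cells had Fst (5.22%, 2.13 to 10.5), against 0.956% of the others, with 15.6% of genes at 1.5 or more.

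The number of Fst UMIs followed the number of Inhba UMIs in the same cell. At 5000 UMIs per bleomycin cell the mean was 0.869 Fst UMIs in 6928 cells without Inhba, 2.14 at 1 Inhba UMI, 2.63 at 2, 3.52 at 3 to 4 and 4.61 in 259 cells with 5 or more. Fstl3 in the same cells was at 0.275, 0.309, 0.310, 0.260 and 0.324. Among inflammatory fibroblasts Fst went from 0.412 to 2.82 over these steps. In the fibrotic class it was at 2.45, 3.48, 3.19, 4.02 and 5.08, a narrower range from a higher start. In smooth muscle cells it was at 0.249 without and 0.429 with 1 Inhba UMI, and 17.0% and 16.9% of those cells had any Fst.

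**Figure D4:**
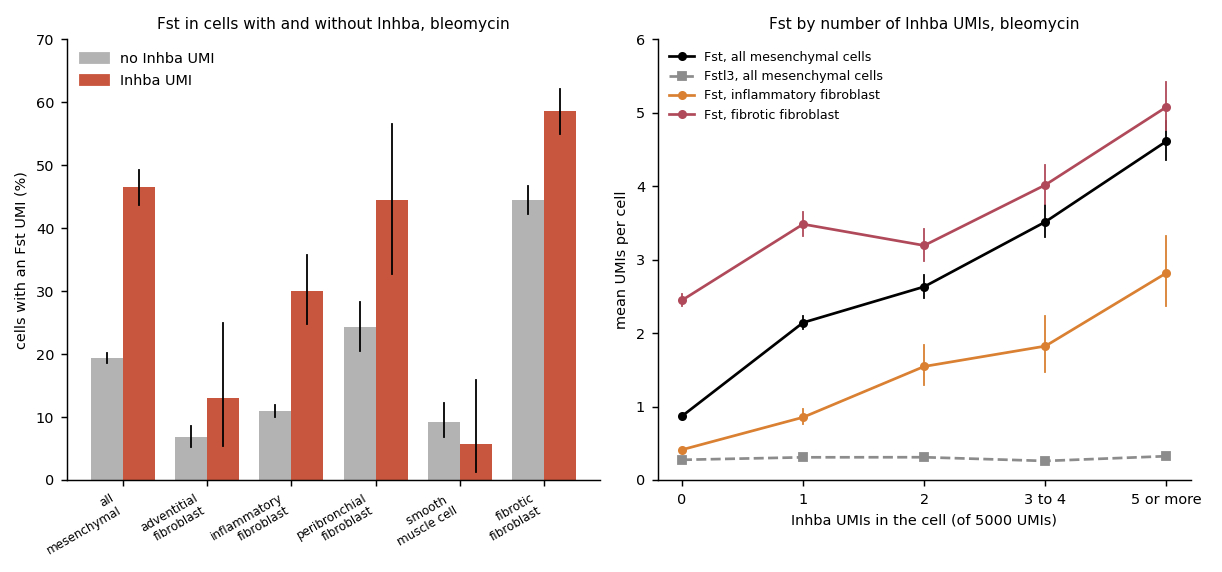
Left: share of bleomycin cells with an Fst UMI (%), at 2000 UMIs per cell, among cells without (grey) and with (red) an Inhba UMI, by class, with exact 95% intervals. Right: mean Fst UMIs per cell, at 5000 UMIs, by number of Inhba UMIs, with Poisson intervals, and Fstl3 as the dashed line; Fst goes from 0.869 to 4.61 over all mesenchymal cells while Fstl3 stays between 0.260 and 0.324.

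Counted over all UMIs of each cell, 71.3% of the 3328 bleomycin cells with Inhba had Fst and 53.7% of the 4418 cells with Fst had Inhba. The cells with both held 89.4% of the Inhba UMIs, against 5.69% in saline, where 26 of 414 Inhba cells had Fst. These counts are not at equal depth, with medians of 6781 UMIs in saline and 11822 in bleomycin, and doublets were left out in saline alone. The part of depth and doublets in the difference was not tested. In bleomycin the share of Inhba UMIs in cells with Fst was 94.4% in the fibrotic class, 82.0% in peribronchial, 76.9% in inflammatory, 52.7% in adventitial and 27.3% in smooth muscle cells. With Fstl3 counted as well, 94.6% of the bleomycin Inhba UMIs and 48.4% of the saline ones lay in a cell with an antagonist UMI. UMIs of Acvr1b and of a type II receptor were found together in 1.51% of saline and 4.87% of bleomycin cells, shares that move with depth since both receptors are scarce.

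The other genes of the pathway were 64 in 6 lists, of which 63 were in the matrices and 33 at 10 CPM or more. Of these 33, 1 was higher and 2 were lower, near the 5.63% and 5.92% of all 8023 genes called. Their median log2 ratio was 0.23, against -0.04 over all genes tested. The 1 higher was Sparc, a matrix protein with a follistatin-like module, at 1990 and 6395 CPM (3.21). The 2 lower were Tgfbr3, the co-receptor betaglycan that binds inhibin, at 114 and 46.4 CPM (0.406), and Acvrl1, a type I receptor for BMP9, at 73.9 and 36.0 (0.487). Of the 13 transducers and feedback genes measured 0 passed the call, too few genes to set apart from those shares. Smad2 was at 21.4 and 20.5 CPM, Smad3 at 30.6 and 29.3 and Smad4 at 57.6 and 55.5, each at a ratio of 0.96. Smad7, an inhibitor induced by this signalling, was at 235 and 350 CPM (1.49), and the decoy receptor Bambi at 146 and 81.7 (0.558). Tgfbr1 was at 72.3 and 61.9 CPM. Acvr1c, the alternative type I receptor, had 1 and 4 UMIs, and the antagonist Wfikkn2 was at 1.25 and 0.883 CPM.

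Across the 15 sums of a class in a library with 50 cells or more, 11159 genes were ranked by Pearson's r of log2(CPM + 1) with each gene, as a description, since the sums share 2 libraries and their depths. For Inhba the most alike were Svbp (r = 0.95), Eef1b2, Rpl15, then Fst itself (0.93) and Jade1. For Fst the leading genes were Arpc1b (0.97), Spcs1, Rplp0, Ereg, which encodes the growth factor epiregulin, and Prdx2. Fstl1 went with the collagen gene Col5a1 (0.98) and the collagen-processing genes Fkbp10 and Loxl3. Inhbb went with 1110008P14Rik (0.94), Pgpep1 and Sdc1, and was highest in the epithelial cluster, at 14.6 CPM in saline from 10 UMIs. Fstl3 had no gene above 0.81 (Nacad, then Gm11627 and Trio). Between the 9 genes, Inhba had an r of 0.84 with Fstl1, 0.77 with Acvr1, 0.15 with Acvr1b, 0.06 with Inhbb, 0.04 with Fstl3 and -0.55 with Acvr2a.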

How the data were processed

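Droplet single-cell RNA was sequenced with the 3' v3 chemistry of 10x Genomics, per the labels' protocols. The deposited matrices hold whole-number UMI counts per gene and barcode, made by the authors with Cell Ranger 6.1.2 on mm10, per the submitters' processing notes. Neither the labels nor the headers name filters applied before deposit.

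Cells with at least 500 genes and at most 10% mitochondrial UMIs were kept (8350 saline and 10001 bleomycin). Scrublet, at an expected rate of 7%, called 66 saline doublets, which were left out, and 0 in bleomycin, where it did not work, so doublets remain there. Clusters were made in scanpy 1.11.5 from 2000 variable genes less the members (Fst and Inhba were among them), 30 components, 15 neighbours and Leiden resolution 0.5, and classes were rebuilt from markers: a name needed 3 markers raised 1.5-fold or more (10 CPM added), a median log2 fold of at least 0.5 and 50% of the list at 10 CPM. Differences from the study may come from these rebuilt names.

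Counts were summed per class and library and divided by the class total (CPM). The mesenchymal sums were 59040772 UMIs in saline and 131319283 in bleomycin. Levels have exact Poisson intervals, ratios exact conditional binomial intervals and shares Clopper-Pearson intervals; the limit for a count of 0 is 3. No test across samples is possible with 1 library a group. Thinning drew UMIs without replacement. Gene positions are from GENCODE (GRCm38), with 9 of 9 members matched. Alternatives were scaling with edgeR 4.0.16 (TMM) or the median of ratios, the CPM minimum, cell filters, doublet scores, resolution, classes by marker score and thinning depth.

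Named genes were the 9 members, pathway genes past the size rule and a fixed set of activin signalling genes, the genes with the most alike pattern (5 for Inhba and Fst, 3 for Inhbb, Fstl1 and Fstl3) and the 5 with the highest co-detection ratio. Of the latter, 1 gene is not reported here. The leading genes of clusters were named as they came. The members and lists were chosen with earlier results of these data known.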

Additional observations from a re-analysis of the deposited data

Results flagged for a closer look

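Inhba differed in direction between classes: its bleomycin over saline ratio was 0.808 in smooth muscle cells and 6.28 in peribronchial fibroblasts. It was picked out because the intervals lay on opposite sides of 1. With 1 library per treatment the difference was not tested, and the smooth muscle ratio was 1.30 with classes by highest marker score. At resolution 1 a cluster led by Cnn1 and Tnnt2 (74 saline and 165 bleomycin cells) was also named smooth muscle. It had 28.4 and 51.0 CPM of Inhba.

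Fstl3 did the same between inflammatory fibroblasts (0.608, from 88 saline cells) and peribronchial fibroblasts (1.55). This difference was not tested either, and by highest marker score the ratio in inflammatory fibroblasts was 0.953.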

How the results depend on the processing

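No paired analysis was possible because each treatment has 1 library. For the same reason no replicate could be left out. Over all mesenchymal cells the calls of Inhba, Fst and Fstl1 kept their direction under every scaling, filter and clustering tried. As a mean of each cell's own CPM the ratio was 12.4 for Inhba and 31.9 for Fst. With no minimum level 1891 genes were higher and 1858 lower, and at 50 CPM 184 and 215. Fst was higher in 3 of 3 classes compared at resolution 1 and in 8 of 8 by highest marker score, and Inhba in 6 of 8 by marker score. Alveolar and inflammatory fibroblasts were not compared at resolution 1, since each had a cluster with under 50 saline cells there. Acvr1b was higher in 1 of 3 at resolution 1, in 2 of 8 by marker score and in 2 of 5 without the highest doublet scores.

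Shares of cells moved with depth: at 1000 UMIs, at 5000 UMIs and unthinned, Inhba was found in 7.94%, 22.8% and 34.4% of bleomycin cells and Fst in 15.2%, 35.9% and 45.7%. The co-detection ratio of Fst with Inhba was 2.06 at 5000 UMIs, 2.21 unthinned, 3.14 with at least 2 UMIs of each, 1.48 within clusters (Mantel-Haenszel) and 1.49 within clusters of resolution 1, an alternative added after seeing the data. Ratios that turned to the other side of 1 were those of Inhba in smooth muscle cells (1.30 by marker score) and, unthinned and with at least 2 UMIs, the co-detection with Inhba of Inhbb (1.51 and 1.40), Acvr1b (1.10 and 1.53) and Acvr2a (1.12 and 1.42); the cause was not tested. Scaling to the median gene ratio within each class, also added later, left the directions of Inhba and Fst as they were. Depth limits Inhbb, Acvr2b and the receptor pairs most, with few cells holding more than 1 UMI.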

Other observations

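Mesothelial cells, the lining of the lung surface, were set aside from the mesenchymal sums. UMIs of the pair were counted in their cluster in bleomycin: 57.6 CPM of Inhba (46.8 to 70.1) and 70.4 CPM of Fst (58.4 to 84.1) in 117 cells. Over all UMIs 23 of these cells had Inhba and 16 of the 23 also had Fst. Doublets remain in the bleomycin library, and their part in these counts was not tested. The saline library had 41 such cells, too few for a level.

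The epithelial cluster had 0 UMIs of Inhba and Fst in 120 saline cells and 14 and 30 UMIs in 212 bleomycin cells, or 9.02 and 19.3 CPM. Fstl3 was at 81.5 and 42.5 CPM there, and Fstl1, abundant in all mesenchymal classes, at 16.02 and 103.1 CPM. The part of doublets in the bleomycin counts was not tested here either.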
